A study of Mus musculus with 2 samples.

Results

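PT-S3 cluster 3 is the set of cells that the deposited annotation names PT-S3, after the straight S3 segment of the proximal tubule, and places in cluster 3. It held 854 of the 11759 annotated cells, 727 in the IRI library and 127 in the control library. The IRI library came from a kidney that went through unilateral ischaemia-reperfusion injury, a stop and return of blood flow, in a mouse whose other kidney was removed. The control library came from a normal kidney. Both mice were wild-type C57BL/6 of 9 weeks with no transgene, and the labels give neither the time after injury nor the hour of collection. They name no nephrectomy for the control, so effects of the ischaemia and of the nephrectomy cannot be told apart. Each group is a single library, which gives no error between mice and allows no test. Every value below describes these 2 libraries, with exact Clopper-Pearson 95% intervals that cover counting error only.

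The proximal tubule takes back most of the filtered salt, glucose, amino acids and protein, and its S1, S2 and S3 segments carry different transporters. S3 lies in the outer medulla, where oxygen is scarce, and is known as the segment most damaged by ischaemia. Injured tubule cells are known to switch on secreted and surface proteins such as osteopontin (Spp1) and KIM-1 (Havcr1) while they lose transport genes.

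Cluster 3 made up 92.0% (89.9 to 93.8) of the 790 PT-S3 cells of the IRI library, against 8.81% (7.39 to 10.4) of the 1442 PT-S3 cells of the control library. Of all cells it formed 14.1% of the IRI library and 1.93% of the control library. The other PT-S3 cells of the IRI library numbered 63, of which 58 lay in cluster 4, and those of the control library numbered 1315, spread over clusters 4 (742 cells), 8 (455) and 21 (118). Genes that define the cluster also differed between the libraries, so these shares describe how the authors' clustering divided the cells and are not a measured change in one kind of cell. Cluster 3 cells had a median of 2471 raw UMIs in the IRI library and 2662 in the control library. Other PT-S3 cells had 1350 in the IRI library and 4852 in the control library. The 2 libraries shared 55 cell barcodes, 1 of them within cluster 3.

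In sum, cluster 3 held less of the S3 genes than other cells named PT-S3. Levels are mean depth-corrected counts per cell, the unit of the deposited table, and ratios are log2 with 0.05 added to each mean. A gene counted as measured in a comparison with a mean of at least 0.1 in the higher group and at least 30 summed counts. Slc7a13, a cystine and acidic amino acid carrier of S3, averaged 0.0867 in cluster 3 and 0.381 in other PT-S3 cells of the IRI library, and 0.150 in cluster 3 and 1.53 in other PT-S3 cells of the control library. Slco1a1, an organic anion carrier, stood at 0.0413 in cluster 3 and 0.222 in other PT-S3 cells of the IRI library, and at 0.063 and 0.865 in the same order in the control library. Slc22a7 and Cyp7b1 were listed at 0 in the IRI cells of cluster 3 and also in those of PT-S3 cluster 4, so they do not set cluster 3 apart there. The 12 S3 genes summed to 0.810 in cluster 3 and 2.37 in other PT-S3 cells of the IRI library, and to 0.827 in cluster 3 and 6.15 in other PT-S3 cells of the control library. In the 58 IRI cells of cluster 4 alone, Slc7a13 averaged 0.190 and Slco1a1 0.224. The 12 genes were not summed in cluster 4 alone. Against PT-S1 clusters the order was mixed. In control cells, cluster 3 ranked 4 of 12 for Atp11a (0.220), after PT-S3 clusters 21, 8 and 4. Control Slc7a13 was lower in PT-S1 clusters 5 (0.0813) and 6 (0.0399) than in cluster 3. In the IRI library PT-S1 cluster 5 was above cluster 3 for Slc7a13 (0.0958) and for Atp11a (0.583 against 0.325).

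Genes of S1 showed the reverse order. Slc5a2, the glucose carrier SGLT2, averaged 0.191 in cluster 3 and 0.0159 in other PT-S3 cells of the IRI library, and 0.276 in cluster 3 and 0.0373 in other PT-S3 cells of the control library. Gatm, which makes the creatine precursor guanidinoacetate, was also higher in cluster 3, at 1.36 against 0.667 in the IRI library and 2.17 against 0.278 in the control library. The 6 S1 genes summed to 2.10 in cluster 3 against 0.794 in the IRI library, and to 3.53 against 0.535 in the control library. Among the clusters named PT-S1, cluster 5 averaged 0.798 for Slc5a2 in the IRI library and 1.30 in the control library, above cluster 3, and cluster 6 averaged 0.209 and 0.225, close to cluster 3. Gatm was also high in control cells of PT-S2 cluster 0 (2.33). The 5 S2 genes summed to 2.69 in cluster 3 against 2.60 in other PT-S3 cells of the IRI library. In the control library they summed to 2.57 against 5.94. Cluster 3 thus held less of the S3 genes than the other cells named S3. Which segment the cells of cluster 3 come from was not tested, and the cluster is called here by its number. In cluster 3 the 12 general proximal tubule genes, such as the endocytic receptor megalin (Lrp2) and the phosphate carrier Slc34a1, summed to 22.7 in the IRI library and 27.9 in the control library.

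**Figure D1:**
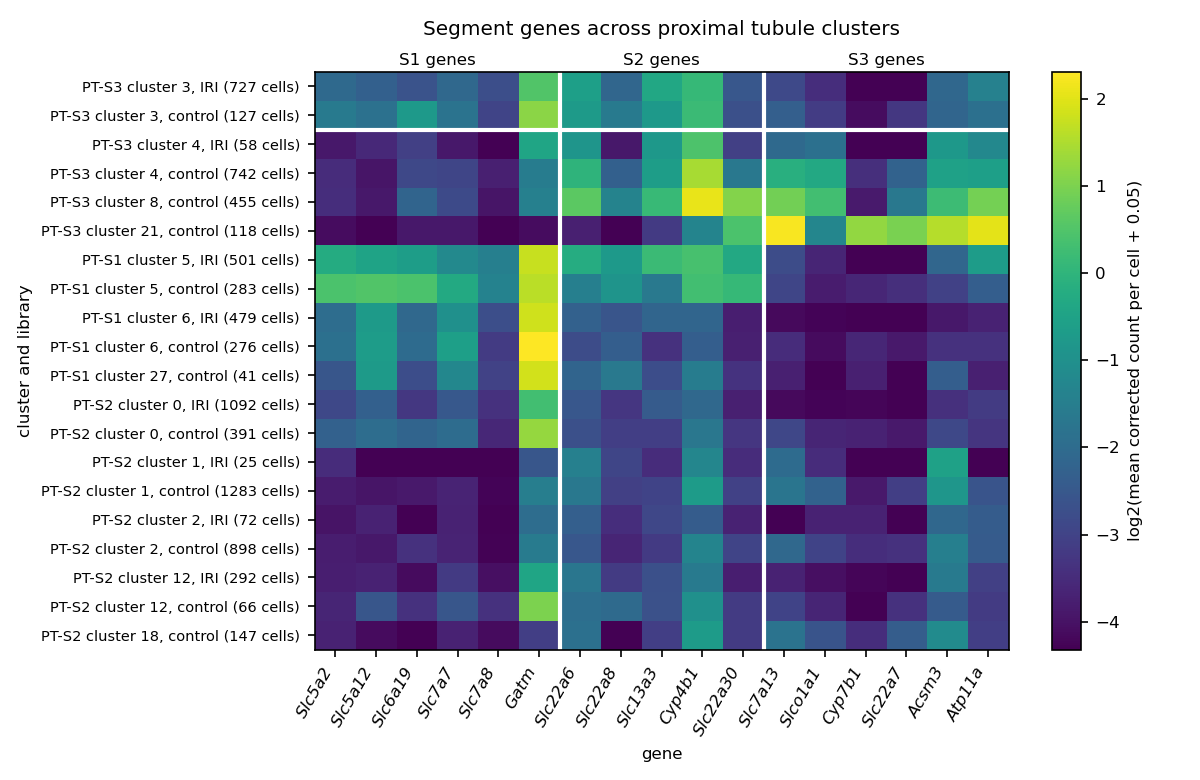
Mean level of S1, S2 and S3 genes, as log2 of the mean corrected count per cell plus 0.05, in each proximal tubule cluster with at least 20 cells in a library (rows, cell numbers in brackets). The top 2 rows are cluster 3, where Slc7a13 averaged 0.0867 in the IRI library and 0.150 in the control library, against 4.66 in control cells of PT-S3 cluster 21.

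The 6 marker genes of the cluster did not move as one set. Spp1, which encodes the secreted phosphoprotein osteopontin, was the gene with the highest ratio: it averaged 14.96 in IRI cells of cluster 3 and 0.354 in control cells, a log2 ratio of 5.21. Slc13a1, the sulphate carrier of the brush border, averaged 0.801 in IRI cells and 0.252 in control cells (1.49). Tmem176a, a membrane protein of the endosomal system, averaged 1.71 and 0.520 in the same order (1.63). Cd63, a tetraspanin of lysosomes and exosomes, averaged 2.35 in IRI cells and 1.39 in control cells (0.73), and Lgmn, the lysosomal protease legumain, 1.38 in IRI cells and 0.732 in control cells (0.87). These 2 genes stayed under 2-fold. Ttr, the thyroid hormone carrier transthyretin, went the other way, at 3.46 in IRI cells and 7.50 in control cells (-1.11).

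Of the 6 markers, Ttr was the one for which cluster 3 ranked first in both libraries. Among the proximal tubule clusters with at least 20 cells, cluster 3 ranked 1 of 10 for Ttr in the IRI library and 1 of 12 in the control library, with PT-S1 cluster 5 next at 2.004 and 2.99. For Spp1 it ranked 2 of 10 in the IRI library, after the Injured PT cells (38.4), and 3 of 12 in the control library, where PT-S2 cluster 2 was highest with 0.562. In control cells, Slc13a1 (0.255) and Tmem176a (0.943) were as high or higher in other PT-S3 cells than in cluster 3.

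**Figure D2:**
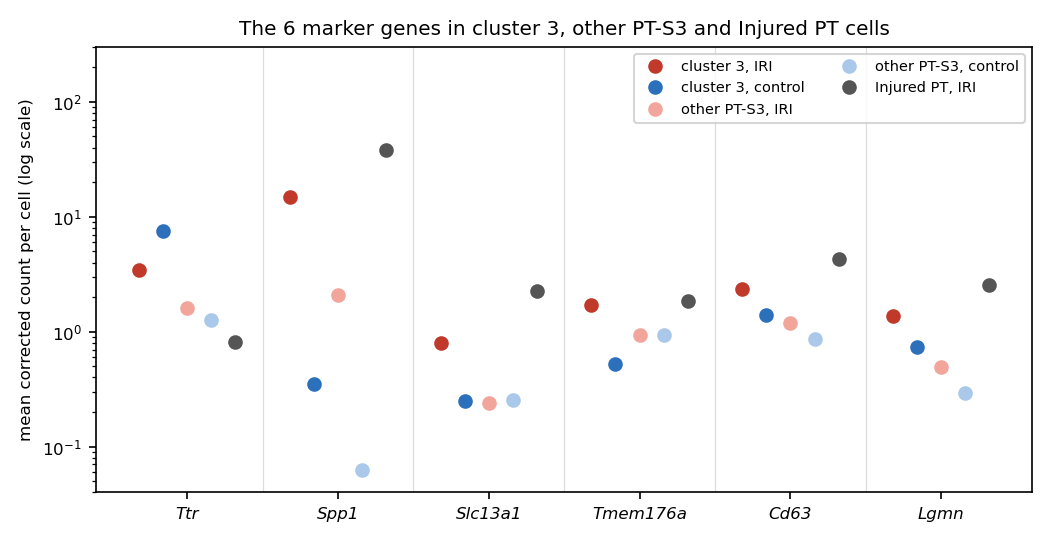
Mean corrected count per cell (log scale) of the 6 markers in cluster 3, in other PT-S3 cells and, for the IRI library, in Injured PT cells, 1 point per group of cells with no error bar because each group is 1 library. Spp1 reached 14.96 in IRI cells of cluster 3 and 0.354 in control cells, while Ttr stood at 3.46 in IRI cells and 7.50 in control cells.

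Spp1 was found in nearly all IRI cells of the cluster. A corrected count of at least 1 was present in 689 of 727 IRI cells (94.8%, 92.9 to 96.3) and in 24 of 127 control cells (18.9%, 12.5 to 26.8). T cells served as a gauge of background, and whether their Spp1 counts came from free RNA or from their own expression was not tested. Of the T cells 52.6% had a count in the IRI library and 5.08% in the control library. Their means were 0.928 and 0.0508, at median depths of 3345 and 2606 raw UMIs. The IRI level of cluster 3 was above that of T cells, whereas a share of cells with at least 1 count is not a measure of expression here. All cells outside the proximal tubule together averaged 12.7 for Spp1 in the IRI library, near the 14.96 of cluster 3. In the control library they averaged 0.818, above the 0.354 of cluster 3. Across the IRI cells the quartiles of Spp1 were 3, 9 and 17 counts and the highest cell held 152. In control cells all quartiles were 0 and the highest held 4. In Injured PT cells the quartiles were 17.5, 28 and 47.5 counts.

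Ttr split the IRI cells. It was present in 339 of 727 IRI cells (46.6%, 43.0 to 50.3) and in 96 of 127 control cells (75.6%, 67.2 to 82.8), while T cells had it in 10.3% of cells in the IRI library and 13.6% in the control library. The median was 0 counts in IRI cells and 8 in control cells. The 75th percentile was 4 counts in IRI cells and 11 in control cells, and the 95th percentile was 17.7 in IRI cells and 17 in control cells. At least 10 counts were held by 13.3% of IRI cells and 37.0% of control cells. At least 20 were held by 3.99% of IRI cells and 3.15% of control cells, and the highest cell held 49 in IRI cells and 29 in control cells. Control cells were thus higher over most of the range and slightly lower at the top, where few cells lay.

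**Figure D3:**
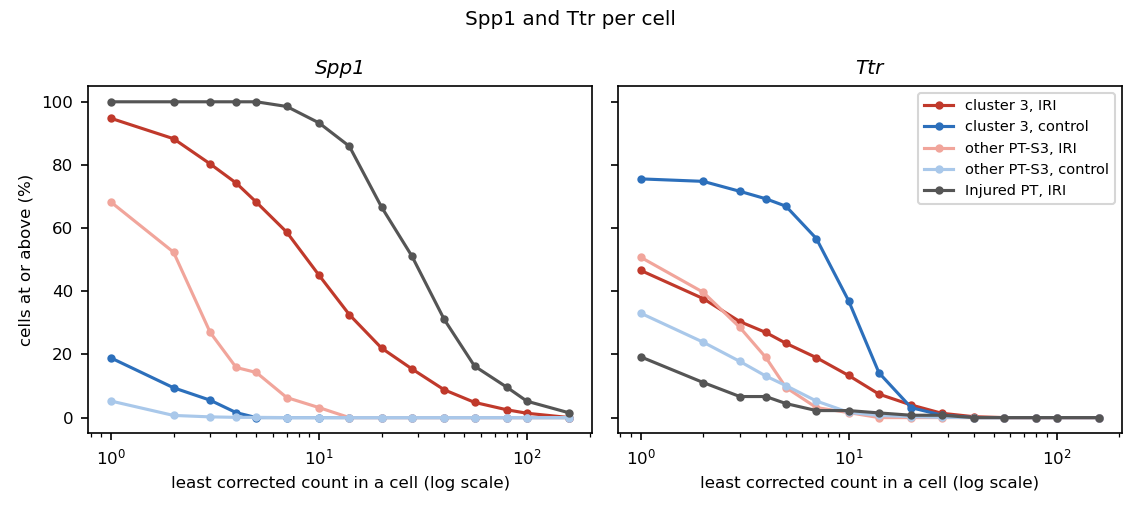
Share of cells (%) at or above each corrected count (log scale) for Spp1 and Ttr, 1 line per group of cells. For Spp1 the IRI cells of cluster 3 lie between the Injured PT cells and the other PT-S3 cells of the IRI library, and for Ttr the control cells of cluster 3 lie highest up to a count of 14.

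Within the 727 IRI cells, Spp1 and Ttr ran in opposite directions. Cells with a Ttr count had a mean Spp1 of 10.7 and a median of 6, and cells without had a mean of 18.7 and a median of 11, at median depths of 2473 and 2450.5 raw UMIs. Cells with a Ttr count also averaged less Havcr1 (0.1003 against 0.317) and less Tmem176b (1.64 against 2.84), and more Gatm (1.69 against 1.07). In control cells Gatm ran the other way, at 1.84 with a Ttr count and 3.19 without. Over the 926 genes with a mean of at least 0.2, the genes that ran most closely with Spp1 from cell to cell, by Spearman correlation with raw UMIs held constant, were Tmem176b (0.38), Cd63 (0.35), C3 (0.32), S100a11 (0.29) and Slc13a1 (0.29). Those that ran most against it were Fxyd2, the gamma subunit of the sodium pump (-0.41), Atp5e, a subunit of the mitochondrial ATP synthase (-0.37), Sord, sorbitol dehydrogenase (-0.32), and Fitm1, a lipid droplet protein (-0.30). These are descriptions across cells of 1 library that share depth and free RNA, and the correlations are weak to moderate.

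Depth did not order Spp1 within the cluster. In 4 equal bins of rising raw UMIs, IRI cells averaged 14.4, 13.7, 10.98 and 20.7 for Spp1, and Ttr was highest in the third bin, at 4.93. Slc13a1, at 0.516, 0.566, 0.901 and 1.22, was higher in each deeper bin, as were Tmem176a, Slc7a13 and Kap.

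Comparing IRI with control cells of cluster 3 asked which genes differed within one annotated group. Of 2406 measured genes, 70 were at least 2-fold higher in IRI cells (2.91%) and 63 at least 2-fold lower (2.62%), and the median log2 ratio over all of them was -0.16. Both directions together made 133 genes (5.53%). With trimmed-mean scaling, which raises that median by 0.20, the counts were 89 higher and 35 lower. Of the 70 higher genes, 6 were listed at 0 in the control cells. Levels in the Injured PT cells of the same library were above those of IRI cluster 3 for 45 of the 70 (64.3%), against 774 of all 2406 measured genes (32.2%). Of the 63 lower genes, 46 were lower still in Injured PT cells (73.0%), near the 67.8% of all measured genes.

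**Figure D4:**
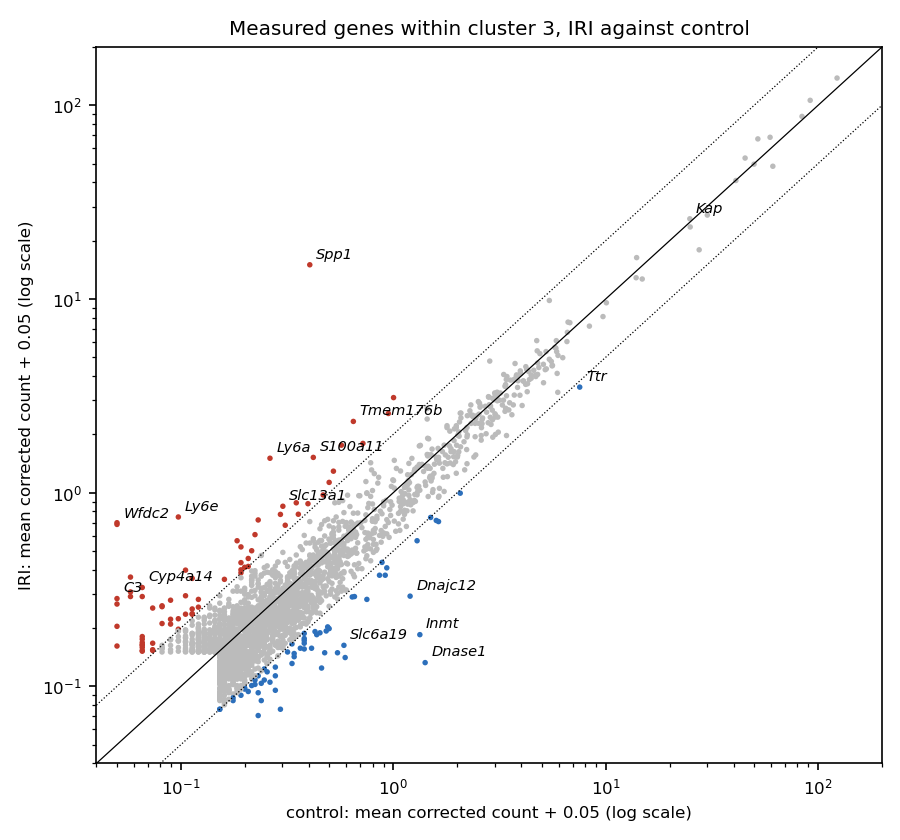
Each point is 1 of the 2406 measured genes, with the mean corrected count plus 0.05 in control cells (x) and IRI cells (y) of cluster 3 on log scales; red and blue mark genes at least 2-fold higher (70) and lower (63) in IRI cells, and dotted lines mark 2-fold. Spp1 lies farthest above the diagonal, at means of 14.96 in IRI cells and 0.354 in control cells.

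Of the 15 genes named as highest in IRI cells, several encode secreted or surface proteins. Wfdc2, a secreted protease inhibitor known as HE4, averaged 0.635 in IRI cells and was listed at 0 in control cells. In the IRI library Wfdc2 averaged 1.13 in cells outside the proximal tubule and 0.0722 in T cells. The lymphocyte antigen 6 genes Ly6e and Ly6a, which encode GPI-anchored surface proteins induced by interferon, averaged 0.699 and 1.46 in IRI cells, against 0.0472 and 0.213 in control cells, and T cells held 2.35 and 0.773 in the IRI library. C3, the central complement protein, averaged 0.234 in IRI cells and Havcr1, the phosphatidylserine receptor KIM-1, 0.216; both were listed at 0 in control cells. T cells of the IRI library averaged 0 for C3 and 0.0412 for Havcr1. Cells outside the proximal tubule of that library averaged 0.0290 for C3 and 0.174 for Havcr1, the second near the level of cluster 3. For Ly6e and Ly6a they averaged 1.53 and 1.48. Tnfrsf12a, the receptor of the cytokine TWEAK, averaged 0.204 in IRI cells and 0.0236 in control cells. Fgg, the fibrinogen gamma chain, averaged 0.228 in IRI cells and 0.0394 in control cells.

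Metabolic genes were among them as well. Cyp4a14 and Cyp4a10, cytochromes that oxidise the end of fatty acids and known targets of the nuclear receptor PPAR alpha, averaged 0.274 and 0.348 in IRI cells, against 0.0157 and 0.0551 in control cells. Ucp2, a carrier of the inner mitochondrial membrane, averaged 0.257 in IRI cells and 0.00787 in control cells. In the IRI library Ucp2 was higher in T cells (1.12) and in cells outside the proximal tubule (0.972). Mgst1, a microsomal glutathione transferase, averaged 0.241 in IRI cells and 0.00787 in control cells. The control means of Ucp2 and Mgst1 rest on 1 summed count each, those of Cyp4a14 and Cpe on 2 and that of Tnfrsf12a on 3, so no ratio is given for these genes. Cpe, carboxypeptidase E, averaged 0.241 in IRI cells and 0.0157 in control cells. S100a11, a calcium-binding protein, averaged 1.47 in IRI cells and 0.370 in control cells (log2 ratio 1.86). T cells of the IRI library averaged 1.37 for S100a11, and cells outside the proximal tubule 4.03. Cyr61, a matrix-associated signalling protein, averaged 0.111 in IRI cells and was listed at 0 in control cells.

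Tmem176b averaged 2.28 in IRI cells and 0.598 in control cells (log2 ratio 1.85), next to 1.63 for Tmem176a. Both genes were higher in IRI cells under each alternative tried, by 1.64 to 2.06 for Tmem176b and 1.41 to 1.81 for Tmem176a. They lie head to head on chromosome 6. The window below, from RefSeq for GRCm38.p6, runs from 250 bases before to 50 bases after a start of Tmem176a, at chr6:48841233-48841532 on the plus strand. It is shown because the 155 bases in capitals also belong to a window of Tmem176b, at chr6:48841088-48841387 on the minus strand, so these 2 genes that were higher together have start regions that overlap.
Tmem176a: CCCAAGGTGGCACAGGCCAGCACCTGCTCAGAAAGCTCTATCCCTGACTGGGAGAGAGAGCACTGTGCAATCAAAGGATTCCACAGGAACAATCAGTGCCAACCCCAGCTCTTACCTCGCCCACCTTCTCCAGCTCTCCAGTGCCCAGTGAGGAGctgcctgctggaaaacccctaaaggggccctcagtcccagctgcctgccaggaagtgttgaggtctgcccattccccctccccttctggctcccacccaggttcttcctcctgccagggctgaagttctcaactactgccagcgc

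The 15 genes named as lowest in IRI cells began with Dnase1 and Inmt. Dnase1, a secreted DNA-cutting enzyme, averaged 0.0825 in IRI cells and 1.36 in control cells (-3.41). Inmt, an amine methyltransferase, averaged 0.135 in IRI cells and 1.28 in control cells (-2.85). Inmt was present in 9.90% (7.83 to 12.3) of IRI cells and 65.4% (56.4 to 73.6) of control cells, against 2.06% of T cells in the IRI library and 18.6% in the control library. In other PT-S3 cells the ratios of these 2 genes were -4.50 for Dnase1 and -2.90 for Inmt, so both were also low there in the IRI library. Dnajc12, a co-chaperone of the aromatic amino acid hydroxylases, averaged 0.242 in IRI cells and 1.15 in control cells (-2.04). Gadd45g, a stress response regulator, averaged 0.0908 in IRI cells and 0.543 in control cells (-2.08). Slc6a19, the neutral amino acid carrier B0AT1 of the brush border, averaged 0.113 in IRI cells and 0.535 in control cells (-1.85).

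The other genes in the lowest 15 lay between -1.32 and -1.95. Ptgds, prostaglandin D synthase, was the least stable: it stood at -1.95 in all cells and at 0.23 in cells with at least 2000 raw UMIs. Aspdh, an aspartate dehydrogenase-like enzyme (-1.67), Hsd3b2, a steroid dehydrogenase (-1.54), Pdk2, a kinase that inhibits pyruvate dehydrogenase (-1.32), and Dusp1, a phosphatase of MAP kinases (-1.35), were lower. So were Polr3e, an RNA polymerase III subunit (-1.33), Iqsec2 (-1.32), Myl6b (-1.32) and the antisense gene Hnf4aos (-1.50). Hnf4aos overlaps Hnf4a, and the sources used here do not state whether counting used strand.

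Of 31 tubule injury genes, 9 were measured, 7 of them at least 2-fold higher in IRI cells and 0 lower, with a median log2 ratio of 2.41, or 1.86 with genes listed at 0 set to 3 summed counts. All measured genes had a median of -0.16, with 2.91% at least 2-fold higher and 2.62% at least 2-fold lower. The list was compiled from genes known to mark tubule damage, with results of these data in view, and members pass the filter mainly through the IRI library. Besides Spp1, C3 and Havcr1, the actin-binding Tmsb10 averaged 0.649 in IRI cells and was listed at 0 in control cells, though it averaged 21.4 in T cells of the IRI library. S100a6 averaged 0.316 in IRI cells and 0.00787 in control cells, and S100a10 averaged 0.673 in IRI cells and 0.181 in control cells (1.64). Cells outside the proximal tubule averaged 8.52 for S100a6 in the IRI library. Other known markers were rare: Vcam1 was present in 38 of 727 IRI cells (5.23%, 3.73 to 7.10), Sox9 in 16 (2.20%, 1.26 to 3.55) and Krt20 in 3 (0.413%). None of the 127 control cells had a count of any of them. By 3 counts of the total, this limits the share of control cells with a count to 2.36% and sets no limit on cells that express the gene. Lcn2, the iron-scavenging protein NGAL, was present in 5.78% of IRI cells, near the 4.12% of T cells.

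Of 17 class I presentation genes 6 were measured, all with a ratio above 0, against 36.6% of all measured genes. At least 2-fold higher were 3, against 2.91% of all measured genes, and the median was 0.90. B2m, the light chain of class I molecules, averaged 1.08 in IRI cells and 0.449 in control cells (1.18), and H2-K1, a heavy chain, 0.201 in IRI cells and 0.0630 in control cells (1.15). Of 18 interferon response genes 4 were measured and 3 were at least 2-fold higher: Ly6e, Ly6a and Ifitm2, a membrane protein that restricts virus entry, at 0.172 in IRI cells and 0.0394 in control cells (1.31). H2-K1, Ly6e and Ifitm2 passed the filter for measured genes only through the IRI cells, which fixed the direction of their ratios.

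Markers of macrophages moved with these genes. The 10 macrophage markers summed to 0.762 in IRI cells and 0.299 in control cells of cluster 3, against 48.4 in macrophages of the IRI library and 80.7 in those of the control library. Of the 10, 9 were higher in IRI cells, 2 of them at least 2-fold, and Adgre1 was at 0 in both. Over all measured genes 36.6% had a ratio above 0 and 2.91% were at least 2-fold higher. The 10 were counted without the filter for measured genes, and Csf1r and Lyz2 were listed at 0 in control cells. At least 2 of the 10 were present in 88 IRI cells (12.1%) and 4 control cells (3.15%). Neutrophil markers summed to 0.117 in IRI cells and 0 in control cells, T cell markers to 0.00413 and 0. Without the cells that held 2 or more markers of another type, 65 genes were at least 2-fold higher within cluster 3 and 79 lower. Without those cells Ly6e stood at 2.87 and Ly6a at 2.51, the interferon list had a median of 1.89 over 4 measured genes, and the class I list had 0.63 over 5.

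Of 29 lysosome genes 19 were measured, 18 with a ratio above 0, against 36.6% of all measured genes, and 3 at least 2-fold higher, against 2.91%. They had a median of 0.44, which stayed between 0.35 and 0.73 under all alternatives tried. Ctsd, the protease cathepsin D, averaged 0.514 in IRI cells and 0.134 in control cells (1.62). Ctsz, cathepsin Z, averaged 0.307 in IRI cells and 0.110 in control cells (1.15), and Asah1, acid ceramidase, 0.103 in IRI cells and 0.0236, or 3 summed counts, in control cells. Asah1 passed the filter for measured genes only through the IRI cells, which fixed the direction of its ratio. Lamp1, the main membrane glycoprotein of lysosomes, averaged 1.26 in IRI cells and 0.740 in control cells (0.73). Lipa, lysosomal acid lipase, had the one negative ratio (-0.63). In other PT-S3 cells 18 of the list were measured, with 0 at least 2-fold in either direction and a median of -0.09, beside -0.33 for all 2395 genes measured there.

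Of 21 actin and thymosin genes 17 were measured, all with a ratio above 0 and 4 at least 2-fold higher, with a median of 0.54. Over all measured genes 36.6% had a ratio above 0 and 2.91% were at least 2-fold higher. Actb and Actg1, the cytoplasmic actins, averaged 2.67 and 1.75 in IRI cells, against 1.39 and 0.669 in control cells. The highest ratio of the list, 3.81, was that of Tmsb10, listed at 0 in control cells. In the IRI library, cells outside the proximal tubule averaged 6.53 for Tmsb10 and 26.4 for the thymosin Tmsb4x. Tmsb4x averaged 0.722 in IRI cells and 0.244 in control cells of cluster 3. Whether free RNA adds to these counts was not tested. Of 22 heat shock and chaperone genes 14 were measured, with 2 at least 2-fold higher and Dnajc12, given above, lower. Hsp90b1, the chaperone GRP94, averaged 0.385 in IRI cells and 0.142 in control cells (1.18), and Pdia6, a disulphide isomerase, 0.186 in IRI cells and 0.0551 in control cells (1.16). Pdia6 passed the filter for measured genes only through the IRI cells, which fixed the direction of its ratio. Hspa5, the chaperone BiP, stood at 0.12. Basement membrane collagens Col4a1 (0.131 in IRI cells, 0.0157 in control cells) and Col18a1 (0.117 and 0.0236) were at low levels.

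**Figure D5:**
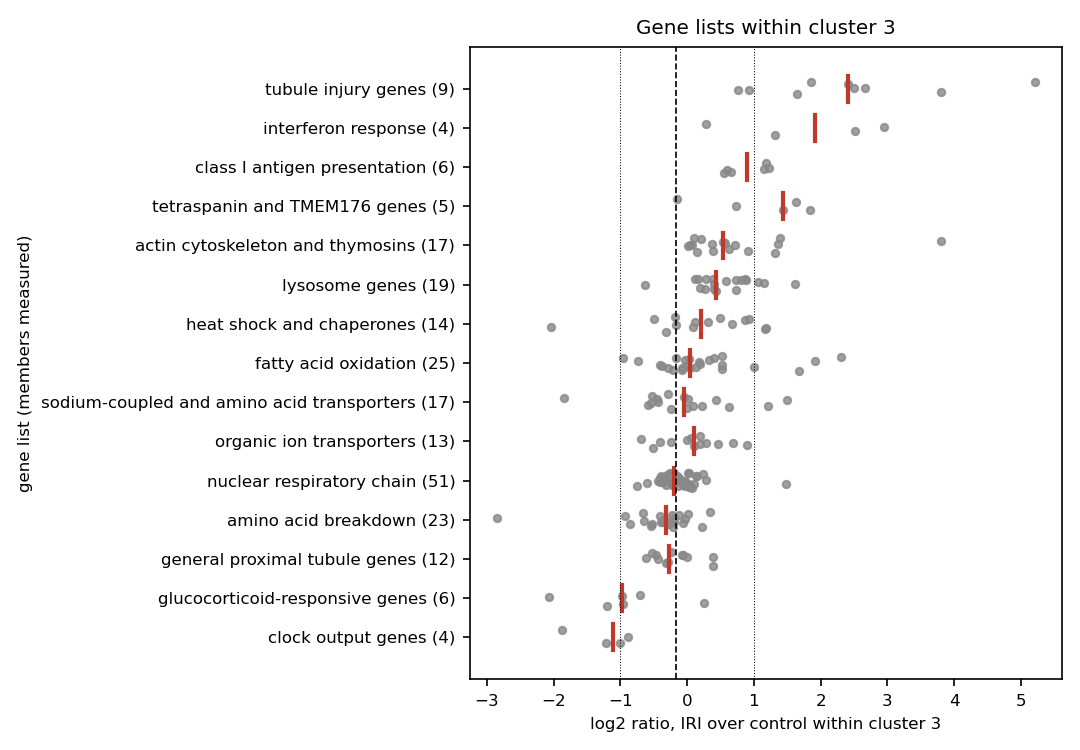
Log2 ratio of IRI over control within cluster 3 for each measured member (grey points) of 15 gene lists, with the list median as a red bar, the median of all measured genes (-0.16) as a dashed line and 2-fold as dotted lines. The median was 2.41 for tubule injury genes, 0.44 for lysosome genes and -1.11 for clock output genes.

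The list medians of transport and energy genes stayed close to the median of all genes. Over all measured genes 2.91% were at least 2-fold higher and 2.62% at least 2-fold lower. Of 23 sodium-coupled and amino acid transporters 17 were measured, with Slc13a1 and Slc6a18 at least 2-fold higher, Slc6a19 lower and a median of -0.05. Of 24 organic ion transporters 13 were measured, with 0 at least 2-fold in either direction and a median of 0.11. Lrp2 averaged 1.69 in IRI cells and 1.79 in control cells, and its partner cubilin (Cubn) 0.282 and 0.283. All 51 respiratory chain genes of the nucleus were measured, with a median of -0.20, and the single one past 2-fold was Cox6b2, a testis-type subunit of cytochrome oxidase, at 0.243 in IRI cells and 0.0551 in control cells (1.48). The 12 measured genes of the mitochondrial genome had a median of 0.11. Of 32 fatty acid oxidation genes 25 were measured with a median of 0.05. The 4 at least 2-fold higher were Cyp4a14, Cyp4a10, Acot1, an acyl-CoA thioesterase (0.210 in IRI cells, 0.0315 in control cells), and Ehhadh, the peroxisomal bifunctional enzyme (0.366 and 0.157). Slc6a18, Cox6b2, Cyp4a14, Cyp4a10 and Acot1 passed the filter for measured genes only through the IRI cells. This fixed the direction of their ratios. Of 31 amino acid breakdown genes 23 were measured, 20 with a ratio below 0 against 63.4% of all measured genes, with a median of -0.32 and Inmt the one past 2-fold.

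Of 17 clock output genes 4 were measured, all with a ratio below 0, against 63.4% of all measured genes. At least 2-fold lower were 3, against 2.62% of all measured genes, and the median was -1.11. Dbp, a transcription factor with a strong daily rhythm, averaged 0.0990 in IRI cells and 0.496 in control cells (-1.87). Tef and Hlf, its relatives of the same family, averaged 0.0977 and 0.109 in IRI cells, against 0.291 and 0.244 in control cells. Nr1d2, the receptor REV-ERB beta, averaged 0.0729 in IRI cells and 0.197 in control cells (-1.01). Dbp, Tef and Nr1d2 passed the filter for measured genes only through the control cells, which fixed the direction of their ratios. Other PT-S3 cells gave -1.06 for Dbp, -1.46 for Tef, -0.62 for Hlf and -0.06 for Nr1d2. Of 15 glucocorticoid-responsive genes 6 were measured, with Gadd45g and Errfi1 at least 2-fold lower and a median of -0.97. Gadd45g, at 0.0908 in IRI cells, passed the filter only through the control cells, which fixed the direction of its ratio. Errfi1, an inhibitor of the EGF receptor, averaged 0.514 in IRI cells and 1.24 in control cells.

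Daily rhythm genes are known to be driven through E-boxes, and the letters CACGTG were searched on both strands, which read alike, in the RefSeq start windows of these 4 genes. Tef held 1 match in each of its 2 windows, while Dbp, Hlf and Nr1d2 held 0 in these windows, against 12.1% of the 2374 windows of measured genes and 7.15% of all 32851 windows of 300 bases. The first Tef window, at chr15:81802423-81802722 on the plus strand of GRCm38.p6, is shown with the match in capitals.
Tef: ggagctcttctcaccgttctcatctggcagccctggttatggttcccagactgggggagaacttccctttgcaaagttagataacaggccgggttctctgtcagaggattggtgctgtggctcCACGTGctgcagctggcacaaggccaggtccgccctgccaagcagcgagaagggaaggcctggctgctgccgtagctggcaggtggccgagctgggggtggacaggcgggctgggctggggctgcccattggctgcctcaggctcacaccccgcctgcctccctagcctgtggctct

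Cell cycle genes were close to absent. The 17 S phase genes summed to 0.294 in IRI cells and 0.236 in control cells, and the 18 genes of G2 and mitosis to 0.125 in IRI cells and 0.00787 in control cells, with 0 members of either list measured.

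Set against other PT-S3 cells of the same library, cluster 3 had 151 of 2148 measured genes at least 2-fold higher (7.03%) and 21 lower (0.978%) in the IRI library, 172 in all (8.01%). Scaled by the median of gene ratios these counts were 109 higher and 44 lower. The clusters were made from these genes, so this is a description of what the cluster holds and not a finding about it, and the other cells number 63. Spp1 led with 14.96 in cluster 3 and 2.08 in other PT-S3 cells. Of the 151, 20 were listed at 0 in the 63 other cells, among them 5 of the 10 named: Id3, an inhibitor of helix-loop-helix factors (0.224 in cluster 3), Havcr1 (0.216), Cxcl16, a membrane-bound chemokine (0.183), Spns3, a transporter-like membrane protein (0.169), and Hax1, a mitochondrial survival protein (0.143). Apoe, the lipid carrier, averaged 0.362 in cluster 3 and 0.0476 in other PT-S3 cells, while cells outside the proximal tubule averaged 2.35. Mocs2, of molybdenum cofactor synthesis, averaged 0.209 in cluster 3 and 0.0159 in other PT-S3 cells.

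Genes lower in cluster 3 included the S3 genes above and Kap, the androgen-regulated kidney protein, at 25.9 in cluster 3 and 68.8 in other PT-S3 cells of the IRI library, and 24.9 and 61.9 in the control library. Acsm3, a medium-chain acyl-CoA synthetase, averaged 0.180 in cluster 3 and 0.762 in other PT-S3 cells (-1.82). Osgin1, a growth inhibitor induced by oxidative stress (-1.68), Aadat, a kynurenine aminotransferase (-1.40), Aspa, aspartoacylase (-1.39), and Hsd3b3, a steroid dehydrogenase (-1.35), were lower as well. Against cluster 4 alone Slc7a13 came to -0.81 and Gadd45g to -0.12, in place of -1.66 and -1.45 against all other PT-S3 cells.

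In the control library the balance was the other way: 55 of 2606 measured genes were at least 2-fold higher in cluster 3 (2.11%) and 205 lower (7.87%), 260 in all (9.98%). That count depended on which cells cluster 3 was set against. With cluster 4 alone, of similar depth at a median of 2373.5 raw UMIs, it was 48 higher and 56 lower, and with the deeper cluster 8 alone 126 higher and 450 lower.

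Within other PT-S3 cells, IRI over control gave 32 of 2395 measured genes at least 2-fold higher (1.34%) and 446 lower (18.6%), or 93 higher and 162 lower when scaled by the median of gene ratios. With cluster 4 alone, which holds cluster makeup fixed, the counts were 30 higher and 302 lower. Depth still differed there, at medians of 1278.5 raw UMIs in IRI cells and 2373.5 in control cells. Of the 12 general proximal tubule genes, 0 were at least 2-fold lower in IRI cells of cluster 3, against 2.62% of all genes measured there, with a median of -0.26. In all other PT-S3 cells, where clusters and depth differed between the libraries, 5 of 12 were, with a median of -0.88. The list was not scored in cluster 4 alone. There Lrp2 averaged 0.879 in IRI cells and 2.32 in control cells, Slc34a1 2.03 and 3.07, and the fatty acid carrier Slc27a2 1.43 and 2.76. The difference between cluster 3 and other PT-S3 cells was not tested, since each holds 1 library per condition.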

How the data were processed

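Kidneys were digested with Liberase and DNase I per the labels' protocols, and the submitters' processing notes name Cell Ranger 3.0.0, mm9 and Seurat 3.2. The deposited expression table holds a score: whole-number, depth-corrected counts of the kind SCTransform in Seurat gives, for 15169 genes and 11759 cells, with corrected totals of 1468 to 3212 per cell. The deposited annotation gives cluster, cell type and raw UMIs; it has no separators, and 3615 cells allowed more than 1 split of raw UMIs and genes. Since corrected counts are not raw, no count model was used and no doublets were called or cells thinned. With Python 3.11.15, means per cell and log2 ratios (0.05 added) were computed for cells of cluster 3 and other PT-S3 cells, and the ratio was tested on simulated data. Named genes were the 15 highest and 15 lowest ratios within cluster 3 and the 10 against other PT-S3 cells, without mitochondrial, ribosomal, haemoglobin, Gm-number and Rik genes and genes over 10 times more abundant outside the proximal tubule, plus 6 markers, genes of opposite direction and list members; Fgg, among the 10, is also given within cluster 3. Members and lists were chosen with earlier results of these data known. Whether the authors removed doublets or free RNA is not given in the sources used here.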

Additional observations from a re-analysis of the deposited data

Results flagged for a closer look

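In all, 5 genes were at least 2-fold higher in IRI cells of cluster 3 and at least 2-fold lower in IRI cells of other PT-S3 cells. The difference between the 2 groups of cells was not tested, and both ratios come from the same 2 libraries. Malat1, a nuclear non-coding RNA, had a log2 ratio of 1.63 in cluster 3 (means of 3.05 in IRI cells and 0.953 in control cells) and -1.74 in other PT-S3 cells (15.4 and 51.3), where it was 0.16 with cluster 4 alone. Malat1 averaged 31.9 in IRI cells and 25.9 in control cells outside the proximal tubule. Ace, the angiotensin-converting enzyme of the brush border, had 1.27 in cluster 3 (0.109 in IRI cells and 0.0157 in control cells, the second resting on 2 summed counts) and -1.16 in other PT-S3 cells (0.111 and 0.311). Slc6a18, a glycine carrier, had 1.22 in cluster 3 (0.231 and 0.0709) and -1.10 in other PT-S3 cells (0.286 and 0.668), or -0.88 with cluster 4 alone. Ctnnb1, which encodes beta-catenin, had 1.08 in cluster 3 (0.206 and 0.0709) and -1.08 in other PT-S3 cells (0.0476 and 0.156). Cd36, a fatty acid carrier, had 1.01 in cluster 3 (0.336 and 0.142) and -1.59 in other PT-S3 cells (0.254 and 0.863), and was 0.97 in cluster 3 without cells holding markers of another type. In other PT-S3 cells 3 of these calls ended with scaling by the trimmed mean of ratios, at -0.85 for Ace, -0.75 for Slc6a18 and -0.80 for Ctnnb1. In cells with at least 2000 raw UMIs none of the 5 was 2-fold lower there, with ratios of -0.52, -0.22 and -0.20 for the same genes, -0.64 for Cd36 and -0.63 for Malat1. The Ctnnb1 mean of 0.0476 in IRI cells of other PT-S3 comes from 63 cells and rests on 3 summed counts. Within cluster 3 Ace, Slc6a18 and Ctnnb1 passed the filter for measured genes only through the IRI cells, which fixed the direction of these ratios. In other PT-S3 cells Ctnnb1 passed it only through the control cells. Within cluster 3 the calls also depended on the setting. Over the alternatives tried the lowest ratios were 0.52 for Ace, 0.67 for Slc6a18, 0.59 for Ctnnb1 and 0.65 for Cd36, all under 2-fold, and 1.38 for Malat1.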

How the results depend on the processing

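Directions held for all named genes under the alternatives tried except in 3 cases: Ptgds within cluster 3 (0.23 at 2000 or more raw UMIs), and, with cluster 4 as the other PT-S3 cells, Malat1 against them (0.36) and between libraries within them (0.16). Among alternatives for named genes, 1050 kept direction and side of 2-fold, 89 ended under 2-fold and 8 went past it. The counts of genes depended on the settings; the causes were not tested beyond what each setting does by construction.

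Within cluster 3, genes higher in IRI cells numbered 112 with a pseudocount of 0.01, 26 with 0.2, 23 with a least mean of 0.5, 189 at 1.5-fold, 26 at 3-fold and 113 at 2000 or more raw UMIs. Genes lower numbered 35 with the trimmed mean of log ratios, 34 with the median of gene ratios, 169 and 14 with the 2 pseudocounts, 18 with a least mean of 0.5, 371 at 1.5-fold and 10 at 3-fold. Ttr within cluster 3 came to -0.91 with the trimmed mean.

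Against other PT-S3 cells of the IRI library, genes higher in cluster 3 numbered 285 and 14 with the pseudocounts, 308 with a least mean of 0.05 and with no filter, 15 with 0.5, 445 at 1.5-fold, 39 at 3-fold and 291 at 2000 UMIs. Genes lower numbered 38 and 44 with the trimmed mean and the median, 33 with totals without mitochondrial, ribosomal and haemoglobin genes, 35 with the mean of each cell's proportion, 65 and 5 with the pseudocounts, 5 with a least mean of 0.5, 40 with no filter, 137 at 1.5-fold, 5 at 3-fold, 36 at 1000 UMIs and 130 at 2000 UMIs.

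In the control library, genes higher in cluster 3 numbered 103 and 17 with the pseudocounts, 14 with a least mean of 0.5, 296 at 1.5-fold, 17 at 3-fold, 90 at 2000 UMIs, 126 against cluster 8 and 508 against cluster 21. Genes lower numbered 331 and 65 with the pseudocounts, 56 with a least mean of 0.5, 504 at 1.5-fold, 68 at 3-fold, 56 against cluster 4, 450 against cluster 8 and 465 against cluster 21.

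Within other PT-S3 cells, genes higher in the IRI library numbered 79 and 93 with the trimmed mean and the median, 64 with the reduced totals, 54 with cell proportions, 70 and 7 with the pseudocounts, 9 with a least mean of 0.5, 53 with no filter, 154 at 1.5-fold, 8 at 3-fold and 175 at 2000 UMIs. Genes lower numbered 174 and 162 with the trimmed mean and the median, 247 with the reduced totals, 81 with a pseudocount of 0.2, 683 with a least mean of 0.05 and with no filter, 77 with 0.5, 885 at 1.5-fold and 112 at 3-fold.

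In cells with at least 2000 raw UMIs, cluster 3 formed 95.5% of PT-S3 cells in the IRI library and 7.28% in the control library. No paired analysis was possible because each group is 1 library, and for the same reason no replicate could be left out. The set without cells that held markers of another type was chosen after seeing the data. With 127 control cells, a count of 0 limits the share of cells with a count, and not of cells that express a gene.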
